A study of Homo sapiens with 6 samples.

Results

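Telomerase is the enzyme that adds telomere repeats to chromosome ends, and shelterin is the protein complex that covers those repeats. The 10 genes described here encode the catalytic subunit of telomerase (TERT), its RNA (TERC), the protein that carries the enzyme to Cajal bodies (WRAP53), the 6 shelterin proteins (TERF1, TERF2, TERF2IP, TINF2, ACD and POT1) and a helicase that opens telomeric loops (RTEL1). They were taken by symbol, through their Ensembl identifiers, from a table of 61853 entries, and all 10 were found and passed the filter on low counts. The RNA came from H9, a widely used line of human embryonic stem cells, sampled at day 0 of differentiation and at day 30, when the cells are labelled as H9-derived arcuate neurons. There were 3 libraries per day, and the labels name no genetic change. Day 0 is the starting line. The day 30 cells had been patterned in KSR and N2 media with SHH, purmorphamine, SB431542 and LDN-193189, then given B-27 and DAPT, replated with a ROCK inhibitor, and grown with B-27 and BDNF.

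Telomeres shorten at each round of DNA replication unless telomerase extends them, and human pluripotent stem cells are known to have active telomerase while most differentiated cells, neurons included, do not. TERT copies a short template within TERC onto the chromosome end. In shelterin, TERF1 and TERF2 each bind the double-stranded repeat, POT1 binds the single-stranded overhang, ACD (also called TPP1) joins POT1 to the complex and recruits telomerase, TINF2 bridges the parts, and TERF2IP (also called RAP1) rides on TERF2.

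Sequences are shown for 3 members, TERC, TERT and TERF2IP: the RNA template, the start of the gene that lost all reads, and the shared start of the gene that rose most. The first is a stretch of the TERC transcript in GENCODE release 29 (hg38, chr3:169764975-169765045, minus strand), in which capitals mark the longest run that matches the complement of the telomere repeat TTAGGG. That run is 11 bases long and lies at positions 46 to 56 of the annotated transcript, counted from its 5′ end.
TERC template: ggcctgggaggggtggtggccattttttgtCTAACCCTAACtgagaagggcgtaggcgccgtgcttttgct
The second lies upstream of the RefSeq start of TERT (GRCh38.p14, chr5:1295199-1295258, minus strand), with the E-box letters CACGTG, which MYC proteins are known to bind, in capitals.
TERT promoter: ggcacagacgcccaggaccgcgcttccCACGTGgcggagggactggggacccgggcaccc
The third is the stretch just upstream of the RefSeq start of TERF2IP, towards KARS1, which is transcribed the other way (GRCh38.p14, chr16:75647680-75647772, plus strand). Capitals mark CTTCCGG, the reverse complement of CCGGAAG, a site type of ETS factors, and the GC box GGGCGG.
TERF2IP and KARS1: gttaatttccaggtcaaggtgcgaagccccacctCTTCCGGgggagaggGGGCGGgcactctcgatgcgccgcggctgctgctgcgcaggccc

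Library totals ran from 5013643 to 12924842 counts, and log2 CPM of libraries of the same day correlated across genes with r of 0.97 to 0.985, against 0.594 to 0.614 between days. CPM here divides by all counts of a library. Of the markers of the labelled cell type, POMC, NKX2-1, OTP and ISL1 were high in every day 30 library, while AGRP, the marker of another arcuate neuron class, had 1 to 3 counts per library. The summed level of 10 pan-neuronal markers was 210 to 227 CPM on day 0 and 6960 to 8450 CPM on day 30, and that of 10 pluripotency markers went from between 6070 and 6420 CPM to between 31.0 and 41.4 CPM. The summed level of 10 proliferation markers was 2110 to 2160 CPM and 44.7 to 84.7 CPM. A list of 10 mesenchymal and endoderm markers set day 30 replicate 3 apart, with 4600 CPM against 213 and 685 CPM in the other day 30 libraries and 613 to 740 CPM on day 0. Its collagen genes COL1A1, COL1A2 and COL3A1 carried most of that, with 1810, 1830 and 902 CPM in replicate 3. They were at 251, 312 and 73.2 CPM in day 30 replicate 2 and at 83.0, 70.0 and 16.2 CPM in replicate 1. The sum mixes directions, since EPCAM fell from a mean of 181 to 39.4 CPM and CDH1 from 220 to 1.87 CPM. SOX17 was at 0 in all 6 libraries. The part of cells with such markers in the results was not tested. Without day 30 replicate 3, TERC (−2.45), WRAP53 (−1.23), TERF2 (1.00), TINF2 (0.51) and POT1 (−1.01) kept their direction and call on the log2 scale. TERF1, TERF2IP and ACD without it are given with their values. Neural progenitor markers summed to between 1230 and 1960 CPM on day 0 and between 909 and 1140 CPM on day 30. VIM and NES carried most of that sum. The other genes of the list went both ways: SOX1 rose from a mean of 0.0758 to 16.9 CPM, and NOTCH1 fell from 57.9 to 5.04 CPM. Astroglial and oligodendroglial markers summed to between 164 and 220 CPM on day 0 and between 31.7 and 58.5 CPM on day 30. Nothing in the labels says whether replicates came from separate cultures. Each p-value therefore sets a difference between days only against the scatter of these libraries, which may be technical.

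The comparison of day 30 with day 0 asked how RNA of the telomerase and shelterin genes differed between stem cells and the neurons made from them. Both parts of telomerase fell, TERT to no reads at all, and shelterin split: TERF1 and POT1 fell, while TERF2IP, TERF2 and TINF2 rose. TERF1 went from 544 ± 82.7 to 52.7 ± 6.10 CPM and TERF2IP from 14.3 ± 1.47 to 245 ± 40.0 CPM (SD, n = 3). In all, 6 of the 10 members passed as lower and 3 as higher on day 30 (edgeR quasi-likelihood test, 2-sided, Benjamini-Hochberg adjusted p under 0.05). Over all 18040 genes tested, 36.8% were lower and 39.8% higher, 76.6% in all, so a call in itself sets no member apart from other genes. The median log2 change of the members was −0.71, also with TERT at its bound, against 0.08 for all genes tested. In bulk RNA, fewer cells of a type and less RNA per cell cannot be told apart.

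**Figure D1:**
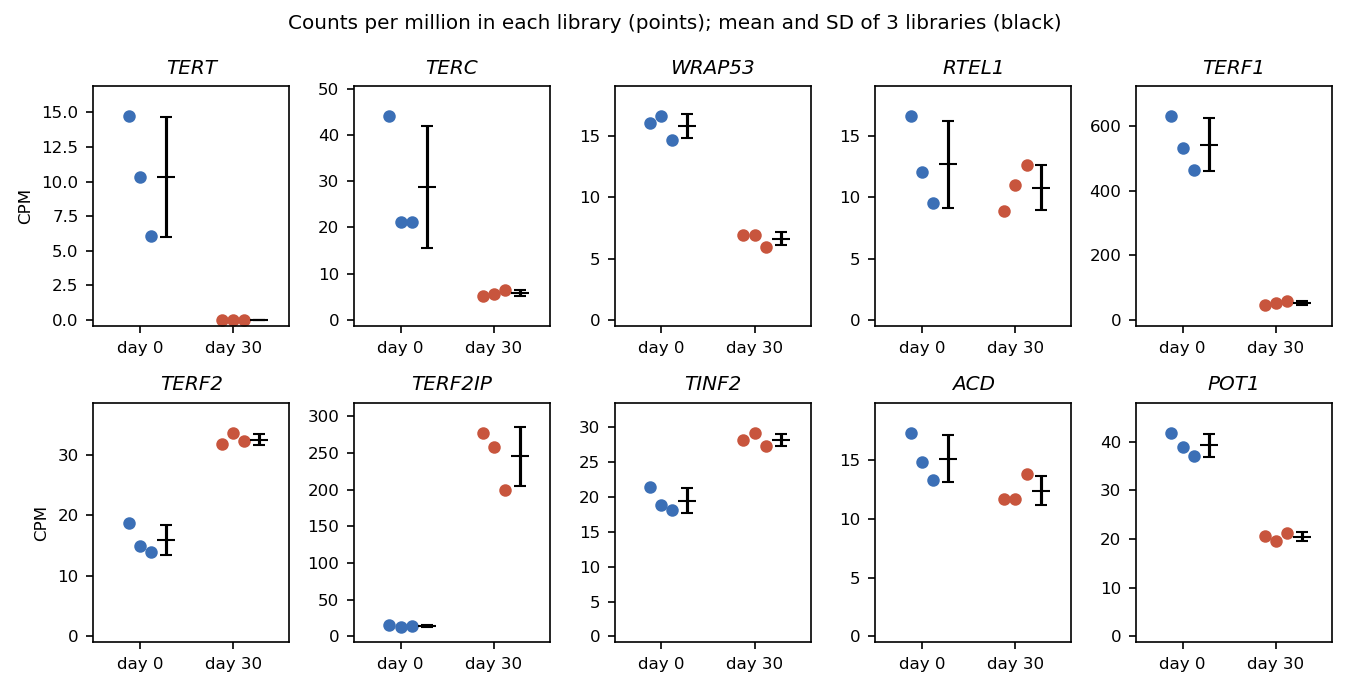
Level of each gene in each library, in CPM on the vertical axis from 0, with day 0 in blue and day 30 in red; black marks are the mean and SD of 3 libraries. TERT is at 0 on day 30, TERF1 drops from a mean of 544 to 52.7 CPM, TERF2IP climbs from 14.3 to 245 CPM, and the points of RTEL1 and ACD overlap between the days.

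TERT (ENSG00000164362.21, chromosome 5, 1253147 to 1295069, hg38), the reverse transcriptase of telomerase, was counted 114, 74 and 53 times in the day 0 libraries and 0 times in each day 30 library. On the CPM scale this was 14.7, 10.3 and 6.03 on day 0, so the day 0 libraries themselves differed by more than 2-fold, and no day 30 library reached any of them. Set against a floor of 3 counts over the 3 day 30 libraries together, or 0.109 CPM, TERT was at least 93.5-fold below its pooled day 0 level. That bound leaves out the spread between day 0 libraries. The fitted change, to which the p-value belongs, passed (edgeR quasi-likelihood test, adjusted p = 6.05e-06). TERT passed the filter through its day 0 reads alone, so it could only fall. Its fitted change was the 33rd largest fall among all genes tested, although that rank depends on how a group of zeros is fitted. Floors here cover counting error only.

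TERC (ENSG00000270141.3, chromosome 3, 169764520 to 169765060), the RNA that holds the template printed above, had 44.0, 21.2 and 21.2 CPM on day 0 and 5.16, 5.65 and 6.48 CPM on day 30. One day 0 library, replicate 1, held about as much as the other pair together, and the lowest day 0 value was still above the highest day 30 value. The log2 change was −2.42 ± 0.28 (SE, adjusted p = 1.40e-05), a 5.35-fold fall, and it was −2.06 without day 0 replicate 1. A second entry of the table, named for the Rfam family RF00024 (ENSG00000277925.1, "Telomerase-vert"), lies within TERC on the same strand, and TERC held at most 50.5% of the reads of both in any library. The entry for TERC therefore carries only part of the reads of this RNA. With both entries added, which was done after seeing the data, the levels were 57.5 ± 26.4 CPM on day 0 and 11.5 ± 1.39 CPM on day 30 (SD, n = 3), and the log2 change was again −2.42 ± 0.26. Unlike TERT, TERC was read in every day 30 library, with 32.5 to 73 counts in its own entry.

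WRAP53 (ENSG00000141499.18, chromosome 17, 7686071 to 7703502), which encodes the protein TCAB1 that binds telomerase RNA, had 16.1, 16.6 and 14.7 CPM on day 0 and 6.92, 6.96 and 5.98 CPM on day 30. These groups were tight and far apart. The log2 change was −1.32 ± 0.17 (adjusted p = 3.95e-05).

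RTEL1 (ENSG00000258366.12, chromosome 20, 63657810 to 63696253), the helicase, had 16.6, 12.1 and 9.50 CPM on day 0 and 8.88, 11.0 and 12.6 CPM on day 30. The ranges overlapped, and the log2 value of −0.33 ± 0.21 did not pass (adjusted p = 0.177). RTEL1 shares its exons with a readthrough gene, RTEL1-TNFRSF6B, and held 50.1% to 52.5% of the reads of both. With the pair added, again after seeing the data, the level was 24.8 ± 6.73 CPM on day 0 against 21.0 ± 3.26 CPM (SD, n = 3), and the log2 value −0.33 ± 0.18 (adjusted p = 0.122).

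**Figure D2:**
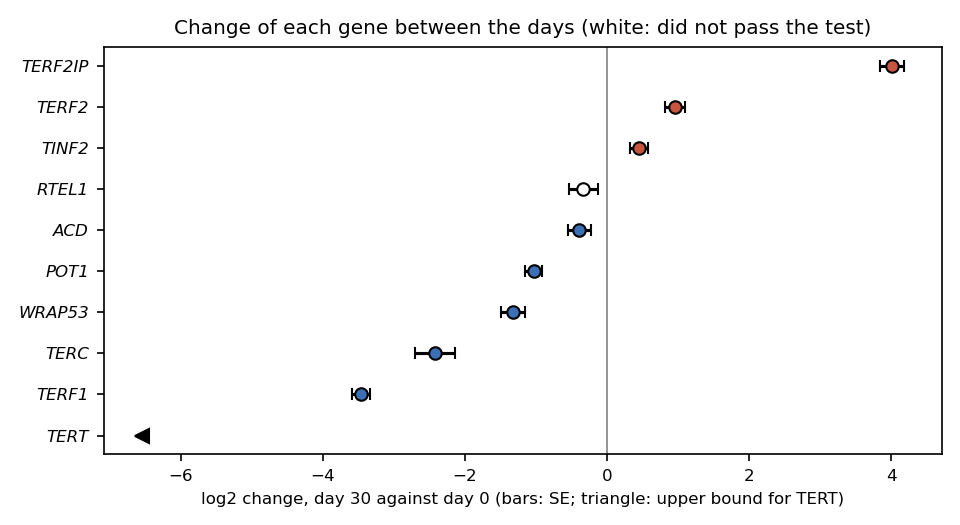
Log2 change of day 30 against day 0 for each gene on the horizontal axis, with bars for the SE; blue passed as lower, red as higher, and white did not pass. TERF2IP at 4.01 and TERF1 at −3.46 lie farthest from 0 among the genes with reads on both days, and the triangle marks the bound for TERT, which had no reads on day 30.

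Among the proteins that hold the double-stranded repeat, TERF1 (ENSG00000147601.15, chromosome 8, 73008864 to 73048122) carried the most reads of all members on day 0, with 631, 534 and 466 CPM. On day 30 it had 47.2, 51.7 and 59.2 CPM, so the lowest day 0 library was far above every day 30 library. The log2 change was −3.46 ± 0.13 (adjusted p = 3.64e-09), an 11.0-fold fall, and 5.62% of tested genes had a more negative value. Without day 30 replicate 3, the library with the highest collagen levels, it was −3.50. TERF2 (ENSG00000132604.11, chromosome 16, 69355561 to 69408571), the related protein that protects ends from fusion, moved the other way. Its day 0 libraries were at 18.7, 14.9 and 13.9 CPM, and those of day 30 at 31.8, 33.6 and 32.2 CPM. The day 30 values lay within a narrow band well above day 0. Its log2 change was 0.96 ± 0.14 (adjusted p = 7.65e-05), a 1.94-fold rise. A protein-coding entry, AC026464.3, overlaps the 3′ end of TERF2 on the same strand and did not pass (log2 value −0.17, adjusted p = 0.571).

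TERF2IP (ENSG00000166848.7, chromosome 16, 75647786 to 75761872), the partner of TERF2, had 15.9, 13.0 and 14.0 CPM on day 0 and 277, 258 and 200 CPM on day 30. Every day 30 library was more than 10-fold above every day 0 library, and the lowest of them was replicate 3. The log2 change was 4.01 ± 0.17 (adjusted p = 5.95e-09), a 16.2-fold rise, and 7.07% of tested genes had a higher value. Without day 30 replicate 3 it was 4.18. KARS1, the lysyl-tRNA synthetase gene on the other side of the stretch printed above, fell from 200 ± 20.8 to 73.5 ± 2.58 CPM (SD, n = 3; log2 change −1.54 ± 0.12), so the 2 genes of this pair passed in opposite directions. The annotation lets KARS1 and TERF2IP overlap at their starts on opposite strands. The kit keeps strand, but no source used here gives the strand setting of the authors' counting, so reads of such antisense pairs may not have been kept apart.

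TINF2 (ENSG00000092330.19, chromosome 14, 24239643 to 24242674), the bridge of the complex, had 21.5, 18.8 and 18.2 CPM on day 0 and 28.2, 29.2 and 27.3 CPM on day 30. The groups did not overlap, and the rise was small, a log2 change of 0.45 ± 0.13 (adjusted p = 0.00767). Its partners on the single-stranded side were lower, ACD only narrowly. POT1 (ENSG00000128513.16, chromosome 7, 124822386 to 124929983) had 41.8, 39.0 and 37.1 CPM in the stem cells and 20.6, 19.6 and 21.2 CPM in the neurons, with no overlap. Its log2 change was −1.03 ± 0.12 (adjusted p = 1.42e-05). Its antisense neighbour POT1-AS1, which overlaps the POT1 start on the other strand, rose from 1.31 ± 0.661 to 5.64 ± 1.08 CPM (SD, n = 3; log2 change 1.99 ± 0.35). ACD (ENSG00000102977.18, chromosome 16, 67657512 to 67660815) had 17.3, 14.8 and 13.3 CPM on day 0 and 11.7, 11.7 and 13.8 CPM on day 30, ranges that overlapped. Its log2 value of −0.39 ± 0.16 passed narrowly (adjusted p = 0.0442), and it did not pass in 10 of 15 alternatives, over which the adjusted p ran from 0.034 to 0.187. These included leaving out day 0 replicate 1 (−0.35) or replicate 2 (−0.42) and day 30 replicate 1 (−0.38), replicate 2 (−0.34) or replicate 3 (−0.42). CARMIL2, which overlaps the end of ACD on the other strand, did not pass (−0.43, adjusted p = 0.109).

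Counting ranges rather than p-values, 5 of the 10 members lay wholly lower and 3 wholly higher on day 30. Over all genes tested, the CPM ranges of the days did not overlap for 79.4%, with 35.9% lower and 43.5% higher. Day 0 replicate 1 held the highest day 0 CPM for 9 of the 10 members, WRAP53 being the exception, and for 45.1% of all genes tested.

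Members were also compared within each library. The difference of log2 CPM between TERF1 and TERF2 was 5.06, 5.14 and 5.05 on day 0, against 0.57, 0.62 and 0.87 on day 30. It fell by 4.40 on the log2 scale, many times the spread between libraries of a day. TERF1 minus TINF2 went from 4.78 ± 0.10 to 0.89 ± 0.19 (SD, n = 3), and POT1 minus ACD from 1.37 ± 0.10 to 0.72 ± 0.10. TERC minus TERT went from 1.46 ± 0.39 to 4.62 ± 0.11, a day 30 value that rests on the prior count of 2 since TERT had no reads, so it is given with no test. For the other 3 differences the days did not overlap, with a 2-sided exact permutation p of 0.1, the smallest that 3 against 3 can give, and 0.1 after Benjamini-Hochberg adjustment over the 4 computed. These differences are not corrected for gene length, which shifts both days alike.

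**Figure D3:**
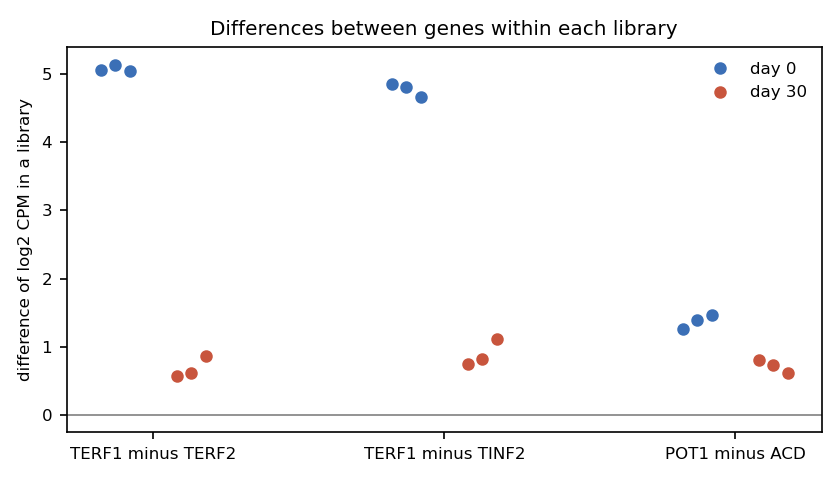
Difference of log2 CPM between a pair of genes within each library on the vertical axis, with day 0 in blue and day 30 in red, 3 libraries each. TERF1 exceeds TERF2 by 5.05 to 5.14 on day 0 and by 0.57 to 0.87 on day 30, while POT1 minus ACD shifts by less.

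Levels of different genes were compared per kilobase of exon, as CPM divided by the length of the union of the exons in GENCODE release 29. On day 0, TERF1 (61.6 ± 9.36 CPM per kilobase) and TERC (53.3 ± 24.3) stood above all others and did not differ beyond their spread. The next members were TINF2 (7.19 ± 0.654) and POT1 (6.66 ± 0.400), whose ranges overlapped, then ACD (4.69 ± 0.622) and TERF2IP (4.22 ± 0.435), which overlapped as well. WRAP53 (3.10 ± 0.196), TERF2 (2.82 ± 0.446), TERT (2.25 ± 0.942) and RTEL1 (1.98 ± 0.555) came last, each overlapping its neighbour in the order. With its readthrough partner added, RTEL1 was at 3.85 ± 1.04, above the means of WRAP53, TERF2 and TERT.

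On day 30 the first place went to TERF2IP, with 72.5 ± 11.8 CPM per kilobase. TERC (10.7 ± 1.24) and TINF2 (10.4 ± 0.340) followed and overlapped, and TERF1 (5.97 ± 0.691) was level with TERF2 (5.79 ± 0.170). ACD (3.84 ± 0.374) and POT1 (3.47 ± 0.143) came next with lowest and highest values of 3.62 and 4.27 for ACD and 3.32 and 3.60 for POT1. RTEL1 (1.68 ± 0.287) and WRAP53 (1.30 ± 0.109) were lowest among genes with reads, with WRAP53 reaching at most 1.37 and RTEL1 at least 1.38. With the readthrough partner added, RTEL1 was at 3.26 ± 0.506, near POT1. With both TERC entries added, TERC was at 106 ± 48.8 on day 0 and 21.2 ± 2.57 on day 30 per kilobase of its own exon, above TERF1 in the mean on day 0 and still below TERF2IP on day 30. With the longest transcript as the length, only 4 members on day 0 and 5 on day 30 kept their place. TERF1 remained first on day 0 (151 ± 23.0) and TERF2IP on day 30 (116 ± 18.9). TERC, by its own entry alone, moved from the second to the fifth place on day 30. TERF1 was no longer level with TERF2 on day 30, at 14.6 ± 1.70 against 10.9 ± 0.321.

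**Figure D4:**
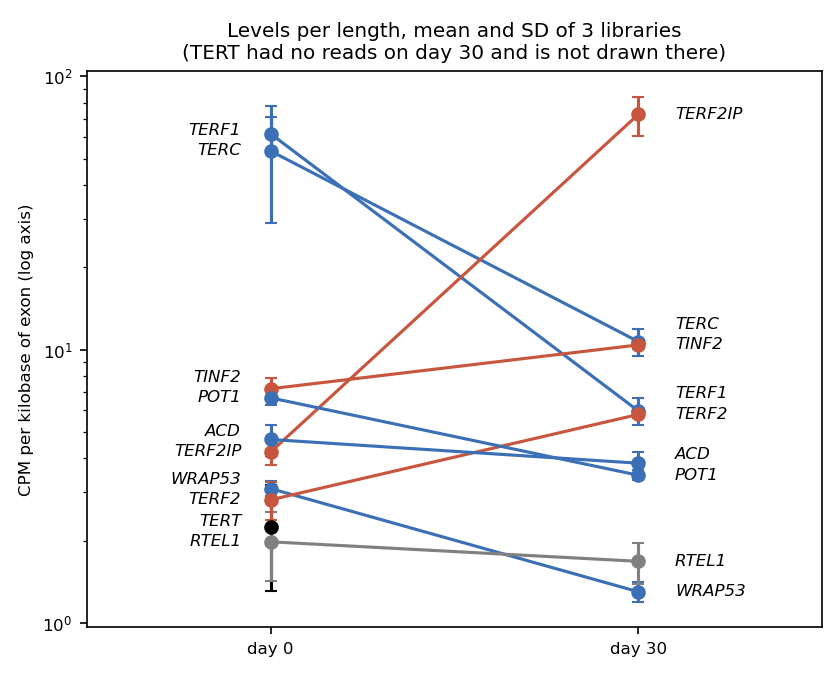
Level per kilobase of exon on a log axis on day 0 and day 30, mean and SD of 3 libraries; blue lines passed as lower, red as higher, grey did not pass, and TERT has a black point on day 0 alone since it had no reads on day 30. By the single entries drawn, TERF1 is highest on day 0 at 61.6 and TERF2IP on day 30 at 72.5 CPM per kilobase. TERC with both its entries added would be at 106 on day 0. By this length TERF1 meets TERF2 near 5.97 and 5.79 on day 30, but by the longest transcript it does not (14.6 and 10.9).

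Promoter sequences in the RefSeq table, 250 bases before to 50 after a start, were found for 7 of the 10 members: TERT, WRAP53, TERF2IP, TINF2, ACD, POT1 and RTEL1. The letters CACGTG, searched on both strands like all motifs here, occurred in the TERT window alone, beginning 163 bases before the start, and in 7.23% of all 34943 promoters. The GC box GGGCGG was in at least 1 window of each of the 7 members and in 44.9% of all promoters. CCGGAAG was in windows of TERF2IP, TINF2 and RTEL1 and in 10.2% of all promoters. The telomere unit TTAGGG was in a window of WRAP53 (9.04% of all promoters) and TGACGTCA in the POT1 window, 23 bases before the start (1.84%). A match shows only that these letters are there.

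The genes with the pattern most like TERT, TERC and TERF1 were found by the root mean square distance of centred log2 CPM over the 6 libraries, which are 3 points from each of only 2 days. For TERT these were FOXD3 (10.0 CPM on day 0 and none on day 30), PIF1 (57.9 and 0.975 CPM) and VWDE (64.8 and 1.28 CPM), at distances of 0.211 to 0.249. TERT had no reads on day 30, so its values there rest on the prior count of 2. The distances therefore do not measure how far it fell. FOXD3 is a transcription factor of pluripotent and neural crest cells, and PIF1 a helicase that can strip telomerase from DNA ends. For TERC they were its own second entry (distance 0.011), SYTL1 (0.055) and ANKRD18CP (0.14), and for TERF1 they were TSSC2, H2AC15 and ZFP36L2 (0.077 to 0.089), which fell by 3.37, 3.42 and 3.72 on the log2 scale.

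Other genes of telomere biology were read from 6 lists with 102 genes, of which 99 were tested. As a whole, 67 passed as lower and 15 as higher on day 30, with a median log2 change of −1.11 against 0.08 for all genes tested. The shares to read these and the following counts against are those of all genes tested, 36.8% lower and 39.8% higher. The level of the proliferation markers fell between the same days, and its part in the counts of these lists was not tested. TOP2A is both a proliferation marker and a gene of the telomere replication and end processing list.

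Factors that make and mature telomerase RNA were mostly lower: 18 of 20 tested fell and none rose (median −1.17), where 36.8% of all genes tested were lower and 39.8% higher. Many of them also serve other H/ACA RNAs. SHQ1, which escorts newly made dyskerin, fell by 2.43 on the log2 scale, and DKC1, dyskerin itself, went from 123 ± 12.1 to 27.4 ± 0.651 CPM (SD, n = 3; log2 change −2.27 ± 0.12). PINX1, a protein that binds TERT and TERF1, fell by 2.12. USB1 and TENT4B did not pass, at 0.25 and −0.07, and were named after their values were seen. PARN, which trims the TERC 3′ end, had too few reads to be tested.

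The machinery that fills in the other telomere strand split by complex, with TEN1 as an exception. All 4 subunits of DNA polymerase alpha-primase fell, with PRIM2 at −4.20 ± 0.20 (74.1 to 4.27 CPM), PRIM1 at −3.40 and POLA2 at −3.23. In the CST complex, which binds the overhang and brings polymerase alpha to it, STN1 rose from 10.9 ± 0.990 to 21.2 ± 3.28 CPM (log2 change 0.85 ± 0.16) and CTC1 from 23.6 ± 3.36 to 36.3 ± 6.00 CPM (0.52 ± 0.15). The third subunit, TEN1, was at −0.69 and did not pass (adjusted p = 0.0791).

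Of 22 tested genes of telomere replication and end processing, 18 fell and 2 rose (median −2.50), where 36.8% of all genes tested were lower and 39.8% higher. The log2 change of PIF1 was −5.99 ± 0.26, and EXO1 (−5.98 ± 0.22) and TOP2A (−5.95 ± 0.42), named after their values were seen, fell as much within the SE. Among those that rose, SLX4, a scaffold of structure-specific nucleases, was at 0.72 ± 0.12. The other gene that rose was MUS81, a nuclease bound by SLX4, at 0.54 (named after its value was seen). Among 12 tested modifiers of shelterin, 6 fell and 3 rose (median −0.48), not far from the 36.8% and 39.8% of all genes tested. TNKS, a tankyrase that releases TERF1 from telomeres, rose from 115 ± 7.52 to 307 ± 3.15 CPM (log2 change 1.32 ± 0.11). The other tankyrase, TNKS2, named after its value was seen, did not pass (150 ± 8.36 to 137 ± 3.49 CPM, −0.23 ± 0.10). FBXO4, a ubiquitin ligase subunit that acts on TERF1, rose (1.16 to 3.62 CPM, log2 change 1.55 ± 0.35), as did RLIM, another such ligase (0.54). The mitotic kinase AURKB fell by 6.22, PARP1 by 2.40 and GNL3, a nucleolar protein that binds TERF1, by 1.45.

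Of 22 genes of telomeric chromatin and repeat binding, 10 were lower and 6 higher (median −0.32), shares near the 36.8% and 39.8% of all genes tested. NR2F2, an orphan nuclear receptor, rose by 3.96 ± 0.53 from 0.678 ± 0.753 to 11.1 ± 3.68 CPM. Its day 30 libraries were at 8.77, 9.21 and 15.4 CPM, the highest being replicate 3. With a library left out the rise ran from 3.42 to 5.30. Day 0 replicate 2, without which it was 5.30, held 11 of its 15 counts on day 0. DAXX, the histone H3.3 chaperone, had the largest fall, 2.43, from only 32 counts over the day 0 libraries to 7 on day 30. In the damage response at unprotected ends, 11 of 16 fell and 2 rose (median −0.86), where 36.8% of all genes tested were lower and 39.8% higher. LIG4, the ligase of end joining, rose from 10.8 ± 1.21 to 52.7 ± 4.56 CPM (log2 change 2.21 ± 0.15). TP53BP1, named after its value was seen, rose as much within the SE, from 140 ± 15.3 to 681 ± 12.6 CPM (2.20 ± 0.11).

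**Figure D5:**
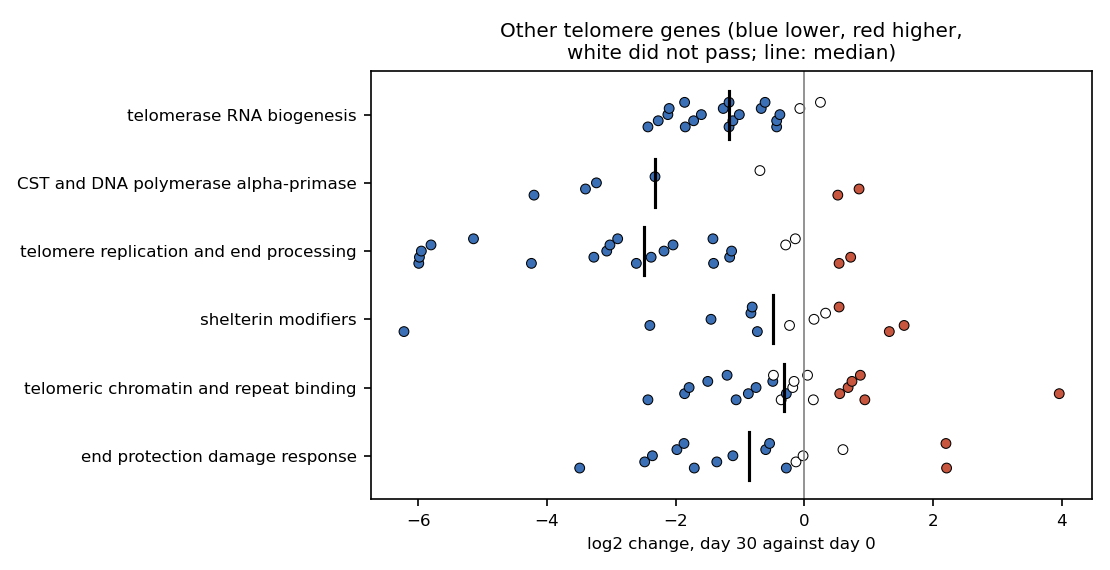
Log2 change of day 30 against day 0 for the tested genes of each of the 6 lists, 1 point per gene; blue passed as lower, red as higher, white did not pass, and the black line is the list's median. The replication list reaches −5.99, whereas the chromatin list, with a median of −0.32, spreads on both sides of 0.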

How the data were processed

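RNA of 6 libraries (rRNA-depleted, stranded total RNA kit, per the labels' protocols) was counted per gene by the authors. The deposited values are taken to be expected counts, since 83.7% of values above 0 are whole and the rest are fractions. Whether reads over overlapping features or reads mapping to several places were divided is not known. Per the submitters' processing notes, the build was hg38 and FastQC 0.11.9 was used. No source used here gives the aligner, counting program, annotation or strand setting. Reads appear to be split between overlapping entries, which lowers the level of TERC and RTEL1. The plan provided for rounding where values were not whole, and they were rounded for the tests. Levels are CPM of total counts without the TMM factor.

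Tests used edgeR 4.0.16 in R 4.3.3 (quasi-likelihood, TMM, filterByExpr, adjustment over 18040 genes). The fit was also run on simulated data in which few genes changed, all by the same fold. That run cannot check the scaling for these data, where 76.6% of genes tested passed. The SE is approximate, the absolute log2 change over the square root of F. Alternatives used DESeq2 1.42.0 and limma 3.58.1, other scalings and filters, a replicate block, and each library left out. Positions are from GENCODE release 29, which holds 94.3% of the entries. The members and lists were chosen with earlier results of these data known. Named genes were the members, and in each list the passing genes with the largest fall and rise (up to 3 each for RNA biogenesis, CST with polymerase alpha-primase, and shelterin modifiers), the 3 genes most like TERT, TERC and TERF1, and genes overlapping a member. Some genes under this rule are not reported here.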

Additional observations from a re-analysis of the deposited data

How the results depend on the processing

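Of the 10 members, TERT, TERC, WRAP53, TERF1, TERF2, TERF2IP, TINF2 and POT1 passed with the same direction in all 15 alternatives. For TERT, with no reads on day 30, that direction could not differ. RTEL1 passed in none of the alternatives (adjusted p from 0.0556 to 0.464). ACD did not pass with total counts only (−0.30), without a filter on low counts (−0.40), with library totals lacking the 10 most abundant genes (−0.26), with DESeq2 (−0.43) or with replicate numbers as a block (−0.38). With a library left out it ranged from −0.46 to −0.34. The cause was not tested. The number of members called lower was 5 or 6, and that called higher was 3, in every alternative; for the 6 pathway lists together the numbers were 63 to 69 and 15 to 16. The pathway genes named by the rule kept direction and call in the 14 alternatives run for them. TEN1, TENT4B, USB1, MUS81, EXO1, TOP2A, TP53BP1 and TNKS2 were not followed singly. Without day 30 replicate 1 the CST and polymerase alpha-primase list had 5 lower genes in place of 4. STN1 and CTC1 stayed higher there, so the added lower gene was TEN1. The median log2 change of all genes was 0.08 with TMM and 0.17 with total counts only. It was 0.21 with library totals lacking the 10 most abundant genes, a setting that also leaves out TMM. With the longest transcript as gene length, 4 members on day 0 and 5 on day 30 kept their place in the order of levels. Replicates with the same number did not deviate together (r of 0.07, 0 and −0.05 for replicates 1, 2 and 3). Such values cannot show whether a number marks a shared batch, and the labels do not say. The block gave 6415 lower and 6921 higher genes, against 6641 and 7186, and changed the call of ACD alone among the members. Depth limits TERT on day 30, where 0 counts allow up to 0.109 CPM over the group.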
